A study of Rattus norvegicus with 10 samples.

Results

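Proteins that bind AU-rich elements set how long many short-lived mRNAs last, and 7 genes of mRNA decay and stability were followed in FGF2-treated rat lens explants: Zfp36, Zfp36l1, Zfp36l2, Elavl1, Hnrnpd, Khsrp, and Tent5a. They were taken by symbol, as all probe sets to which the array annotation gives one of these symbols alone, which gave 15 probe sets of the 31042 tested and 7 genes of the 14217 that carry a symbol. The explants, pieces of lens capsule with the attached epithelium of 3-day-old rats, were kept in dishes of 6. All of them had spent a night at 5 ng/mL FGF2. Those of 0 hr were taken then, and the others after 2, 4, 12, or 24 hr at 100 ng/mL FGF2, with 2 arrays per time point and 10 in all, each set of RNA from a different culture. Every comparison with 0 hr has a pair of limits. Explants kept at 5 ng/mL throughout were not analysed here, so the dose cannot be told apart from the time spent in culture. By the array names in the supplement of the study, the early arrays (2 and 4 hr) formed one run, the late arrays (12 and 24 hr) another, and the 0 hr arrays belonged to neither, so that run and time are separate only for 4 hr against 2 hr and for 24 hr against 12 hr.

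An AU-rich element is a stretch of adenines and uridines in the 3′ untranslated region of an mRNA, common in transcripts of cytokines, chemokines, and immediate-early genes. The Zfp36 family (tristetraprolin and its relatives) binds the element through zinc fingers and recruits the Ccr4-Not complex, which removes the poly(A) tail, after which decapping enzymes and the exosome degrade the body of the message. Khsrp brings decay enzymes to the same class of transcripts, Hnrnpd (Auf1) promotes decay of some targets and stabilizes others, and Elavl1 (HuR) mainly stabilizes them. Tent5a is a cytoplasmic poly(A) polymerase, which lengthens poly(A) tails. Whether it acts on transcripts with AU-rich elements in these explants was not tested. The kinases p38 and Mk2 phosphorylate tristetraprolin, which then binds 14-3-3 proteins and loses activity.

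Lens identity was checked first. Of 7 lens epithelium markers, Cryaa, Pax6, and Cdh1 had mean log2 intensities of 14.46, 13.27, and 13.31 at 0 hr, and only Six3 was under 100 on the linear scale. The lens markers themselves moved over the course. Foxe3, Cdh1, and Pax6 differed from 0 hr by -1.18, -0.70, and -0.41 log2 units at 24 hr, when 3 of the 7 epithelium markers were called lower and 0 higher. Of 7 lens fiber markers 1 was called lower at 2 hr, 3 at 4 hr, 4 at 12 hr (Mip at -1.92, Crygs at -1.76, Bfsp2 at -1.21, and Bfsp1 at -0.60 log2 units), and 0 at 24 hr, with 0 called higher at any time and a sum of 18160 to 28440 on the linear scale over the arrays. Their part in the members' values was not tested. The 5 macrophage and leukocyte markers summed to 178 to 386 over the arrays with 4 of them under 100, and none was called against 0 hr at any time. The 2 and 4 hr arrays stood apart in RNA measures: the log2 ratio of 5′ to 3′ Gapdh control signal was between -0.30 and -0.17 on them and between -0.14 and 0.00 on the other arrays, and the 5S rRNA control read 183 to 209, against 112 to 154. The log2 ratio of 5′ to 3′ Actb signal did not separate the arrays in this way. It was between -2.13 and -1.37 at 2 and 4 hr and between -1.88 and -1.12 on the other arrays. The part of these differences in the results was not tested beyond a fit with the Actb ratio as a covariate. That fit does not adjust for the Gapdh and 5S rRNA differences as such. Replicate arrays differed by an SD of 0.29 and 0.30 log2 units at 2 and 4 hr, compared with 0.16, 0.17, and 0.21 at 0, 12, and 24 hr.

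FGF2 treatment was followed within 2 hr by higher mRNA of all 3 measured Zfp36 family genes and of Tent5a and Hnrnpd. Khsrp mRNA was lower then, on 1 of its 3 probe sets, and Tent5a and Zfp36l2 were each called higher on 2 of 3. The calls of Zfp36l1, Hnrnpd, and Khsrp at 2 hr were lost in some of the other fits tried. At 12 and 24 hr the Zfp36 family was below its early level, Khsrp was no longer called against 0 hr, and Tent5a was highest. A limma fit of all 10 arrays with Benjamini-Hochberg adjustment over the 31042 probe sets called 12 of the 15 probe sets over the time course (moderated F test), at least 1 for each of the 7 genes, while 40.7% of all probe sets were called. Against 0 hr, 7 member probe sets were called higher and 1 lower at 2 hr, where the shares among all probe sets were 8.61 and 8.88%. At 4 hr 6 were higher and 1 lower (11.9 and 11.9% of all), at 12 hr 3 higher and 0 lower (8.94% of all higher, 19.0% called in either direction), and at 24 hr 3 higher and 1 lower (9.29 and 10.9%). The median log2 fold change of all probe sets was within 0.03 of 0 at each of these times. These are bulk explants, so more RNA per cell and a larger share of the cells that make it cannot be told apart.

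**Figure D1:**
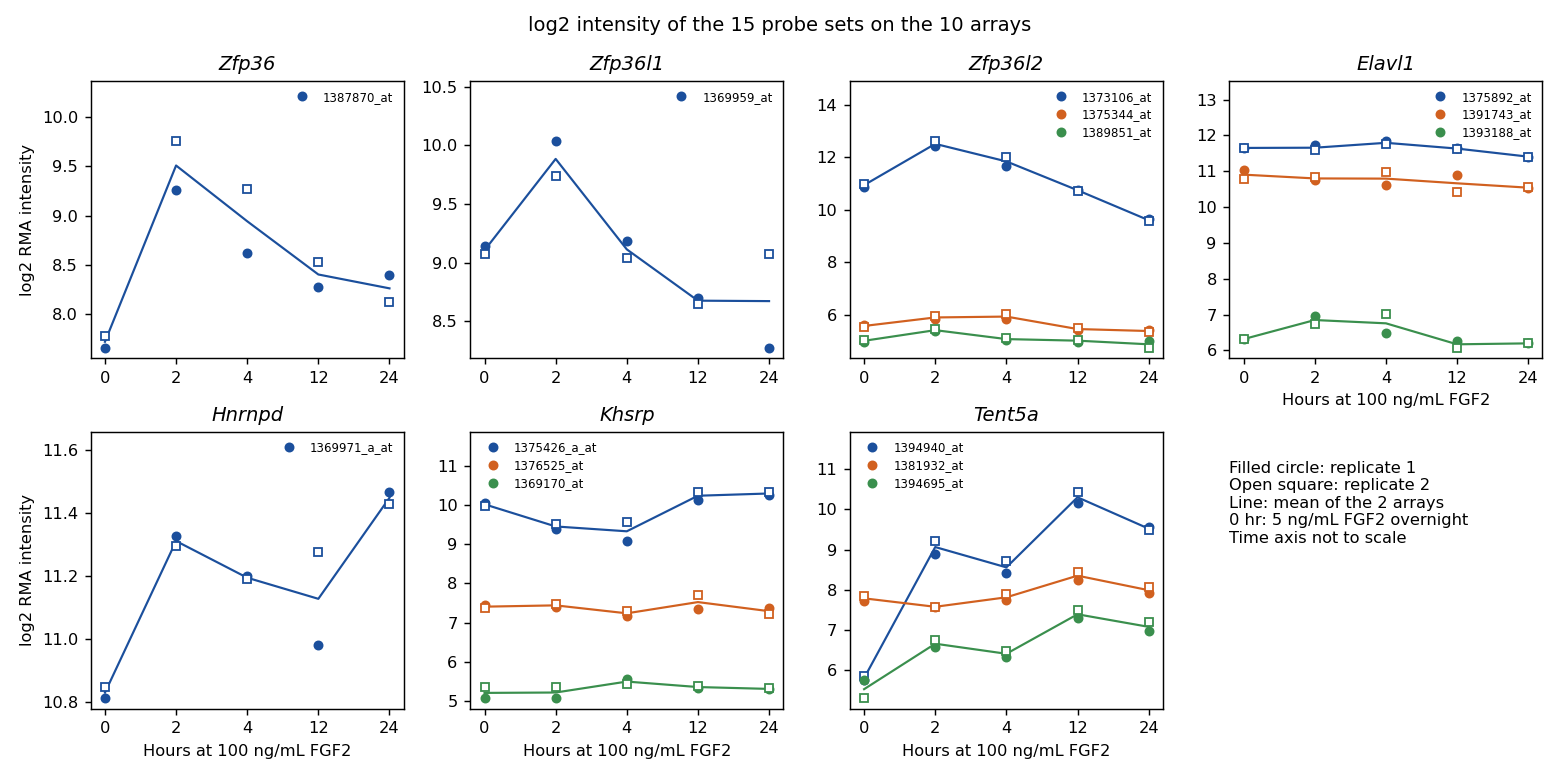
Log2 RMA intensity (vertical axes, each panel with its own range) of the 15 probe sets by hours at 100 ng/mL FGF2, with filled circles for replicate 1, open squares for replicate 2, and lines through the means of the 2 arrays. Zfp36, Zfp36l1, and the bright Zfp36l2 probe set peak at 2 hr, Khsrp 1375426_a_at dips at 2 and 4 hr, and Tent5a 1394940_at peaks at 12 hr with a mean of 10.30.

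Zfp36 encodes tristetraprolin, the best studied member of the decay family. Its single probe set, 1387870_at, had log2 intensities of 7.66 and 7.78 at 0 hr, 9.26 and 9.76 at 2 hr, 8.62 and 9.27 at 4 hr, 8.28 and 8.53 at 12 hr, and 8.40 and 8.12 at 24 hr. All 8 treated arrays were above both 0 hr arrays, the 2 and 4 hr arrays overlapped, and so did the 12 and 24 hr arrays. Zfp36 rose 3.47-fold at 2 hr (log2 fold change 1.79, SE 0.23, n = 2 arrays per time, limma adjusted p = 0.00149) and 2.34-fold at 4 hr (1.23, adjusted p = 0.00532). With the Actb ratio as a covariate these log2 values were 1.11 and 0.71, both still called, and the call at 4 hr was lost in the analysis of variance without adjustment that the methods name. At 12 and 24 hr the log2 differences of 0.68 and 0.54 were not called (limma adjusted p = 0.0731 and 0.141). The late phase (12 and 24 hr) was 0.90 log2 units below the early phase (2 and 4 hr), with means of 8.33 and 9.23 (SE 0.16, limma adjusted p = 0.00243).

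Zfp36l1, a paralog of tristetraprolin, had a short rise. Probe set 1369959_at read 9.14 and 9.07 at 0 hr, 10.03 and 9.73 at 2 hr, 9.19 and 9.04 at 4 hr, 8.70 and 8.65 at 12 hr, and 8.27 and 9.07 at 24 hr, in log2 units. The 2 hr arrays were above all others, the 4 hr arrays overlapped the 0 hr arrays, and the 24 hr arrays differed most from each other (SD 0.56, against 0.03 to 0.21 at the other times). Zfp36l1 rose by 0.78 at 2 hr (1.72-fold, SE 0.22, limma adjusted p = 0.0426), and its log2 differences from 0 hr were 0.01, -0.43, and -0.43 at 4, 12, and 24 hr, none of them called (adjusted p = 0.986, 0.239, and 0.225). The rise at 2 hr was no longer called when either 0 hr, either 2 hr, or either 12 hr array was left out (log2 values 0.63 to 0.93), nor with the replicate number as a block or the Actb ratio as a covariate (0.93). Late against early, Zfp36l1 was lower by 0.83 (means 8.67 and 9.50, SE 0.16, limma adjusted p = 0.00312).

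For Zfp36l2, the third family member, the means of the time points spanned 2.91 log2 units, wider than for Zfp36 (1.79) and Zfp36l1 (1.21). On its bright probe set, 1373106_at, log2 intensities were 10.88 and 10.99 at 0 hr, 12.41 and 12.60 at 2 hr, 11.67 and 12.00 at 4 hr, 10.76 and 10.72 at 12 hr, and 9.64 and 9.56 at 24 hr. No 2 time points overlapped, and the order of the means was 2, 4, 0, 12, and 24 hr from high to low. The transcript rose 2.97-fold at 2 hr (log2 1.57, SE 0.12, limma adjusted p = 0.000191) and 1.87-fold at 4 hr (0.90, adjusted p = 0.00122), differed by -0.19 at 12 hr (adjusted p = 0.355), and was 2.52-fold lower at 24 hr (-1.34, adjusted p = 0.000223).

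Both within-run comparisons also called Zfp36l2. It fell by 0.67 between 2 and 4 hr (SE 0.12, limma adjusted p = 0.0236) and by 1.14 between 12 and 24 hr (adjusted p = 0.00308). It was the only member probe set called between 4 and 2 hr (0 higher and 1 lower of 15, against 2.24 and 1.50% of all probe sets), while between 24 and 12 hr 0 were higher and 2 lower (2.22 and 2.12% of all). The step from 2 to 4 hr was lost without either 0 hr array, 2 hr replicate 2, 4 hr replicate 1, or either 12 hr array (log2 values -0.67 to -0.50). The call of this step was also lost in the analysis of variance of the methods, in a fit of the 2 and 4 hr arrays alone, and with array quality weights. Late against early, the transcript was 4.00-fold lower (log2 -2.00, means 10.17 and 12.17, SE 0.09, limma adjusted p = 3.43e-06), at rank 132 from the bottom of the 31042 probe sets. Beside this, the 3 vascular endothelium markers measured summed to 1058 to 1378 at 0 hr, 1342 to 1624 at 2 hr, 1080 to 1194 at 4 hr, 879 to 956 at 12 hr, and 719 to 768 at 24 hr on the linear scale, with Pecam1 under 100 throughout. These markers did not move alike: late against early, Tek was lower (-1.72 log2 units) and Kdr was higher (1.05), with limma adjusted p = 2.27e-05 and 0.0103. Their part in the course of Zfp36l2 was not tested.

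The other 2 Zfp36l2 probe sets were dim, with mean log2 intensities of 5.65 and 5.08, which 36.5 and 27.6% of probe sets did not reach. Probe set 1375344_at read 5.63 and 5.52 at 0 hr, 5.83 and 5.96 at 2 hr, 5.84 and 6.02 at 4 hr, 5.42 and 5.50 at 12 hr, and 5.42 and 5.34 at 24 hr, and 1389851_at stayed between 4.74 and 5.45. The first was called higher at 4 hr (0.36, limma adjusted p = 0.031) and missed the threshold at 2 hr (0.32, adjusted p = 0.0558), and the second was called at 2 hr (0.41, adjusted p = 0.0307). Neither was called at 24 hr (-0.19 and -0.13, adjusted p = 0.228 and 0.451), where the bright probe set was called lower, and both were lower in the late phase than in the early phase, by 0.50 and 0.30 (limma adjusted p = 0.000649 and 0.0122). Both calls against 0 hr were lost when either 0 hr array was left out (0.30 and 0.41 for 1375344_at, 0.37 and 0.44 for 1389851_at) or either 12 hr array was. That of 1375344_at was also lost without 4 hr replicate 2 (0.27), and that of 1389851_at without either 2 hr array (0.37 and 0.44). The analysis of variance of the methods and a fit of the 0 and 4 hr arrays alone did not call 1375344_at at 4 hr. With the Actb ratio as a covariate both calls were lost as well (0.23 and 0.34).

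Tent5a showed the largest changes among the members. On probe set 1394940_at the log2 intensities were 5.76 and 5.85 at 0 hr, 8.90 and 9.22 at 2 hr, 8.41 and 8.71 at 4 hr, 10.17 and 10.43 at 12 hr, and 9.55 and 9.48 at 24 hr. All treated arrays were more than 2 log2 units above both 0 hr arrays, and no 2 time points overlapped. The transcript ranked 22, 65, 8, and 16 from the top of all 31042 probe sets by log2 fold change at 2, 4, 12, and 24 hr, with differences of 9.56-, 6.73-, 22.5-, and 13.1-fold (SE 0.15 log2 units, limma adjusted p at most 2.01e-05). These folds are set against a dim baseline of 54.3 and 57.6 on the linear scale at 0 hr, under the 100 used for the markers above, and whether that level is above background was not tested. Between 12 and 24 hr it fell by 0.78 (limma adjusted p = 0.0233), a call lost without either array of 0, 12, or 24 hr (log2 values -0.91 to -0.65), and the step of -0.51 between 2 and 4 hr was not called (adjusted p = 0.11).

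The second Tent5a probe set, 1394695_at, read 5.76 and 5.30 at 0 hr, 6.58 and 6.74 at 2 hr, 6.33 and 6.49 at 4 hr, 7.29 and 7.49 at 12 hr, and 6.97 and 7.19 at 24 hr. It had the same order of means as 1394940_at, without overlap, and rose at all 4 times, by 1.13, 0.88, 1.86, and 1.55 log2 units (SE 0.16, limma adjusted p = 0.00242, 0.0048, 0.000171, and 0.000378). Its 0 hr arrays were dim too (54.2 and 39.4 on the linear scale), and its call at 2 hr was lost with the Actb ratio as a covariate (0.94) and that at 4 hr in the analysis of variance of the methods. The third, 1381932_at, read 7.73 and 7.85 at 0 hr, 7.58 and 7.57 at 2 hr, 7.74 and 7.89 at 4 hr, 8.25 and 8.45 at 12 hr, and 7.91 and 8.07 at 24 hr. It was not higher at 2 hr (-0.21, limma adjusted p = 0.23) or 4 hr (0.03, adjusted p = 0.898) and was called only at 12 hr (0.56, adjusted p = 0.00697), a call that did not hold without 0 hr replicate 1 (0.50) or 12 hr replicate 2 (0.46). The probe sets of Tent5a thus disagree on the early rise, and which transcript forms each of them measures was not tested. Late against early, all 3 were higher, by 1.10, 0.70, and 0.47 log2 units (limma adjusted p = 7.93e-05, 0.00136, and 0.00124).

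Hnrnpd was the last member called higher at 2 hr. Probe set 1369971_a_at had log2 intensities of 10.81 and 10.85 at 0 hr, 11.33 and 11.30 at 2 hr, 11.20 and 11.19 at 4 hr, 10.98 and 11.28 at 12 hr, and 11.47 and 11.43 at 24 hr. All treated arrays were above both 0 hr arrays, and only the 4 and 12 hr arrays overlapped among neighbours in the order of means. Hnrnpd rose by 0.48, 0.37, and 0.62 log2 units at 2, 4, and 24 hr (SE 0.10, limma adjusted p = 0.015, 0.0348, and 0.0039), and its difference of 0.30 at 12 hr was not called (adjusted p = 0.0853). The call at 2 hr was lost without either 0 hr array (0.46 and 0.50) or without 2 hr replicate 1 (0.47), the call at 4 hr without any 1 of the 0, 4, or 24 hr arrays (0.35 to 0.38), and both with the Actb ratio as a covariate (0.46 and 0.35), whereas that at 24 hr held in every fit tried. The late phase did not differ detectably from the early phase (0.04, 95% interval -0.13 to 0.20, limma adjusted p = 0.744).

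Promoters of the 5 genes called higher at 2 hr are shown. These genes share that call, while their courses after 2 hr differed. The sequences are those of RefSeq for the rat assembly GRCr8, from 250 bases before to 50 bases after the transcription start, and all 7 members had one. For Zfp36l1 and Hnrnpd the start lies inside the annotated gene (chr6:104663396-104669815 and chr14:9918630-9938072), whereas for the other members it is the outer end of the gene. Capitals mark matches on either strand to the CArG box (bound by serum response factor), GCGNGGGCG (Egr family), TGANTCA (AP-1), and TATAAA, and the genome positions are chr1:92799059-92799358 (minus strand) for Zfp36, chr6:104668641-104668940 (minus) for Zfp36l1, chr6:16242372-16242671 (plus) for Zfp36l2, chr8:95109051-95109350 (minus) for Tent5a, and chr14:9919507-9919806 (plus) for Hnrnpd.
Zfp36: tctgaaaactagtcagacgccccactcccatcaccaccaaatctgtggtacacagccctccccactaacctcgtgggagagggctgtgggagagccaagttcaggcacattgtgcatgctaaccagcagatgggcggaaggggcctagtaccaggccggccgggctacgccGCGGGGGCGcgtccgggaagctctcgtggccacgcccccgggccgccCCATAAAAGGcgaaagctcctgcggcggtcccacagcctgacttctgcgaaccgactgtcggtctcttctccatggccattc
Zfp36l1: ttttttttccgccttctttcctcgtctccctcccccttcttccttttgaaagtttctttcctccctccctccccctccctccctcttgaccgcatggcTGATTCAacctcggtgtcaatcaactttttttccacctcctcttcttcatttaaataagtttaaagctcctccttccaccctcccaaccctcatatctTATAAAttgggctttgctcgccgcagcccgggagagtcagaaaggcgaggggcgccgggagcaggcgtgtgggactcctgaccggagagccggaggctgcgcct
Zfp36l2: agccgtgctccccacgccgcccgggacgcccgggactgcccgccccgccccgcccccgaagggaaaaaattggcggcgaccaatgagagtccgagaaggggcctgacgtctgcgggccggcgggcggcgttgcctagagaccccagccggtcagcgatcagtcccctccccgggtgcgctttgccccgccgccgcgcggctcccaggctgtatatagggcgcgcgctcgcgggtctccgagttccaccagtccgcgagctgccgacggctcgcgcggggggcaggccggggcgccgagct
Tent5a: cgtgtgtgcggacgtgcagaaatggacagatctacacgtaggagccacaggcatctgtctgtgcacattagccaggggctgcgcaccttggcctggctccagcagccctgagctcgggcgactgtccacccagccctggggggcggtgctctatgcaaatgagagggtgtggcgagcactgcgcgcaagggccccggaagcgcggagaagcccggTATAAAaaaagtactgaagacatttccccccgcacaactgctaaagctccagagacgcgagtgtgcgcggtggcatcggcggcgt
Hnrnpd: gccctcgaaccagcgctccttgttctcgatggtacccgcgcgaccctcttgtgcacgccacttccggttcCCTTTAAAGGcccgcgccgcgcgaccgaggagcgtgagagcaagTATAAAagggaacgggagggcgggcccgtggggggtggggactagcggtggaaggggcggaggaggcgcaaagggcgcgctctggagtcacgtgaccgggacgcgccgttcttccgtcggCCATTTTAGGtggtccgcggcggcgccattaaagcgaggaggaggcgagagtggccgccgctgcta

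In these windows Zfp36 has a CArG box at positions -32 to -23 from the start and a GCGNGGGCG match at -79 to -71. Zfp36l1 has TGANTCA at -152 to -146 and TATAAA at -54 to -49, Tent5a has TATAAA at -35 to -30, and Hnrnpd has CArG boxes at -180 to -171 and -16 to -7 with TATAAA at -136 to -131. Of the members not shown, Khsrp has TATAAA at -203 to -198. The Zfp36l2 window holds none of the capitalized motifs. Of 33469 rat promoters of this length, 1.64% hold a CArG box, 4.98% GCGNGGGCG, 7.33% TGANTCA, and 14.2% TATAAA. Also searched were TGACGTCA, which 1.83% of promoters hold and none of the 7 members does, CCGGAAGT (3.81% of promoters, Hnrnpd among the members), and CCAAT (37.5%, in Zfp36l1, Zfp36l2, Elavl1, and Khsrp). The CCAAT and TATAAA matches of Zfp36l1 overlap by a base. Each match describes letters and is not a site shown to be bound.

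**Figure D2:**
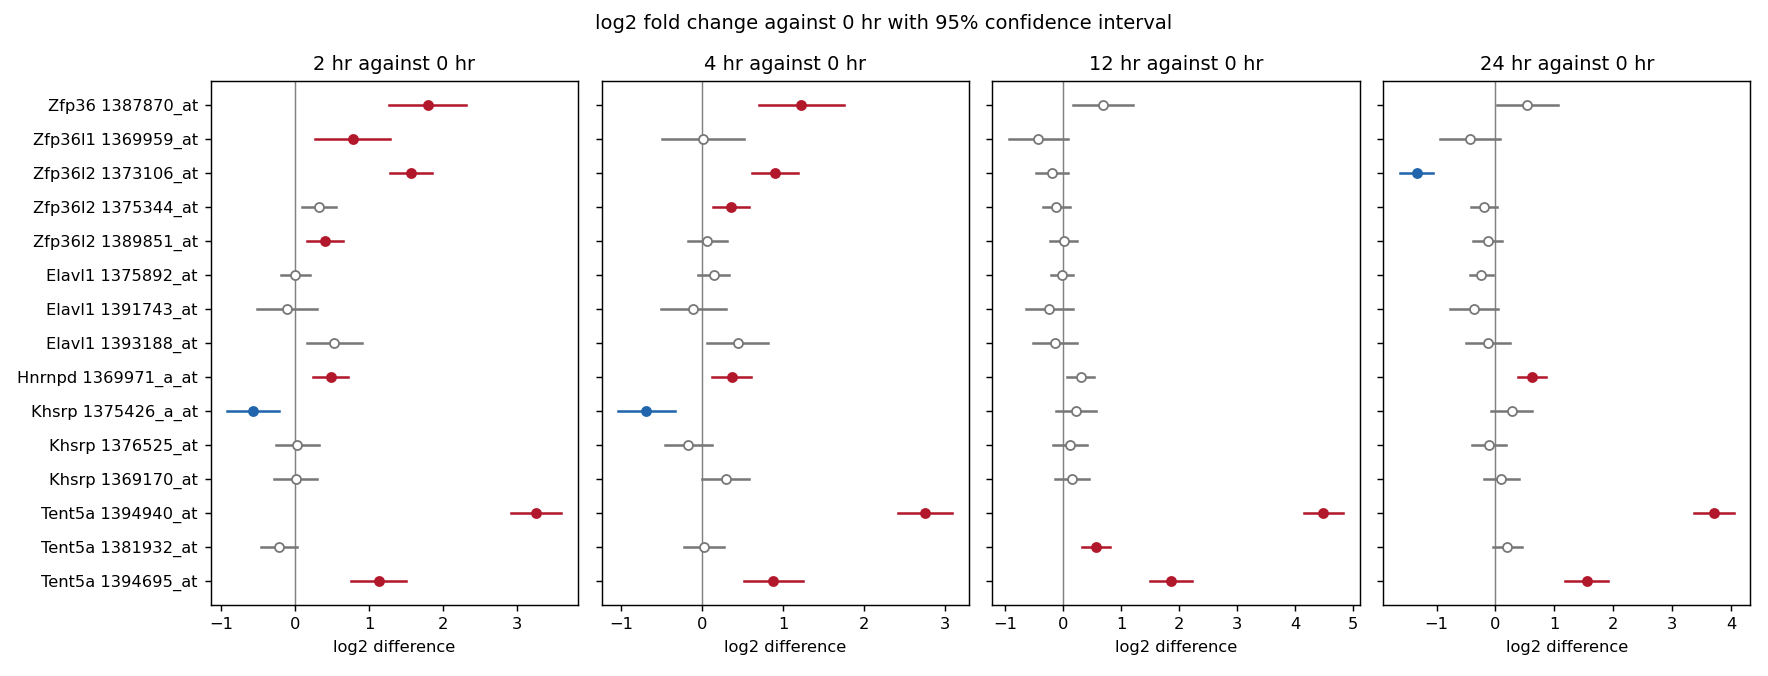
Log2 fold change against 0 hr (horizontal axes) of each member probe set at 2, 4, 12, and 24 hr, with the 95% confidence interval of the limma fit as a bar, red for called higher, blue for called lower, and open grey for not called. The intervals of Tent5a 1394940_at lie right of 2 in all 4 panels, and that of Zfp36l2 1373106_at lies right of 0 at 2 and 4 hr and left of 0 at 24 hr.

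Khsrp, a decay-promoting protein with KH domains, went the other way. Its bright probe set, 1375426_a_at, read 10.06 and 9.98 at 0 hr, 9.40 and 9.51 at 2 hr, 9.08 and 9.58 at 4 hr, 10.14 and 10.33 at 12 hr, and 10.26 and 10.32 at 24 hr, in log2 units. The 4 early arrays were below all 6 others, and the 4 late arrays were above both 0 hr arrays. Khsrp fell by 0.57 at 2 hr (1.48-fold lower, SE 0.15, limma adjusted p = 0.0356) and by 0.69 at 4 hr (1.61-fold lower, adjusted p = 0.0117), and differed by 0.22 and 0.28 at 12 and 24 hr (adjusted p = 0.403 and 0.266). The call at 2 hr was lost without any 1 array of 0, 2, 12, or 24 hr (-0.62 to -0.51), and that at 4 hr without either 0 hr array (-0.73 and -0.65). That at 4 hr was also lost in the analysis of variance of the methods and in a fit of the 0 and 4 hr arrays alone. With the Actb ratio as a covariate the calls at 2 and 4 hr were kept, at -0.99 and -1.01. Late against early, it was higher by 0.87 (means 10.26 and 9.39, limma adjusted p = 0.000315), with groups that did not overlap.

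The other 2 Khsrp probe sets, 1376525_at and 1369170_at, were dimmer, between 7.16 and 7.69 and between 5.06 and 5.56 log2 units over the 10 arrays. Neither was called at any time or over the time course (F test adjusted p = 0.344 and 0.337 in limma). At 4 hr their log2 differences from 0 hr were -0.17 (95% interval -0.46 to 0.12) and 0.29 (0.00 to 0.58), and neither interval includes the -0.69 of the bright probe set.

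Elavl1 encodes HuR, which protects messages with AU-rich elements from decay, and no probe set of it was called against 0 hr. The bright 1375892_at read 11.65 and 11.66 at 0 hr, 11.73 and 11.59 at 2 hr, 11.84 and 11.75 at 4 hr, 11.64 and 11.63 at 12 hr, and 11.41 and 11.41 at 24 hr. Its 24 hr arrays were the lowest of all 10, at a difference of -0.24 from 0 hr (SE 0.09, limma adjusted p = 0.0807). With differences of 0.01, 0.14, and -0.02 at 2, 4, and 12 hr, every 95% interval of this probe set against 0 hr lay between -0.44 and 0.34.

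Probe set 1391743_at of Elavl1 read between 10.42 and 11.03, with overlapping neighbours throughout, and was not called over the time course (limma F test adjusted p = 0.459). The dimmer 1393188_at read 6.31 and 6.32 at 0 hr, 6.96 and 6.73 at 2 hr, 6.49 and 7.02 at 4 hr, 6.27 and 6.07 at 12 hr, and 6.20 and 6.19 at 24 hr. Its early arrays were all above the 0 hr arrays and its late arrays all below them, but the differences of 0.53 and 0.44 at 2 and 4 hr were not called (limma adjusted p = 0.0574 and 0.0887). Late against early, 1393188_at was lower by 0.62 (limma adjusted p = 0.00297) and 1375892_at by 0.21 (adjusted p = 0.0252), and 1391743_at differed by -0.19 (adjusted p = 0.258). The call of 1375892_at was lost without 2 hr replicate 1 (-0.17), 4 hr replicate 1 (-0.18), or any 1 of the 12 or 24 hr arrays (-0.21 to -0.20).

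Late against early, 4 member probe sets were called higher and 7 lower, against 19.9 and 19.3% of all probe sets. The lower ones were all 5 of the decay-promoting Zfp36 family and 2 of the 3 of Elavl1, a stabilizer. The higher ones were the 3 of Tent5a, which lengthens tails, and the bright one of Khsrp, which promotes decay.

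**Figure D3:**
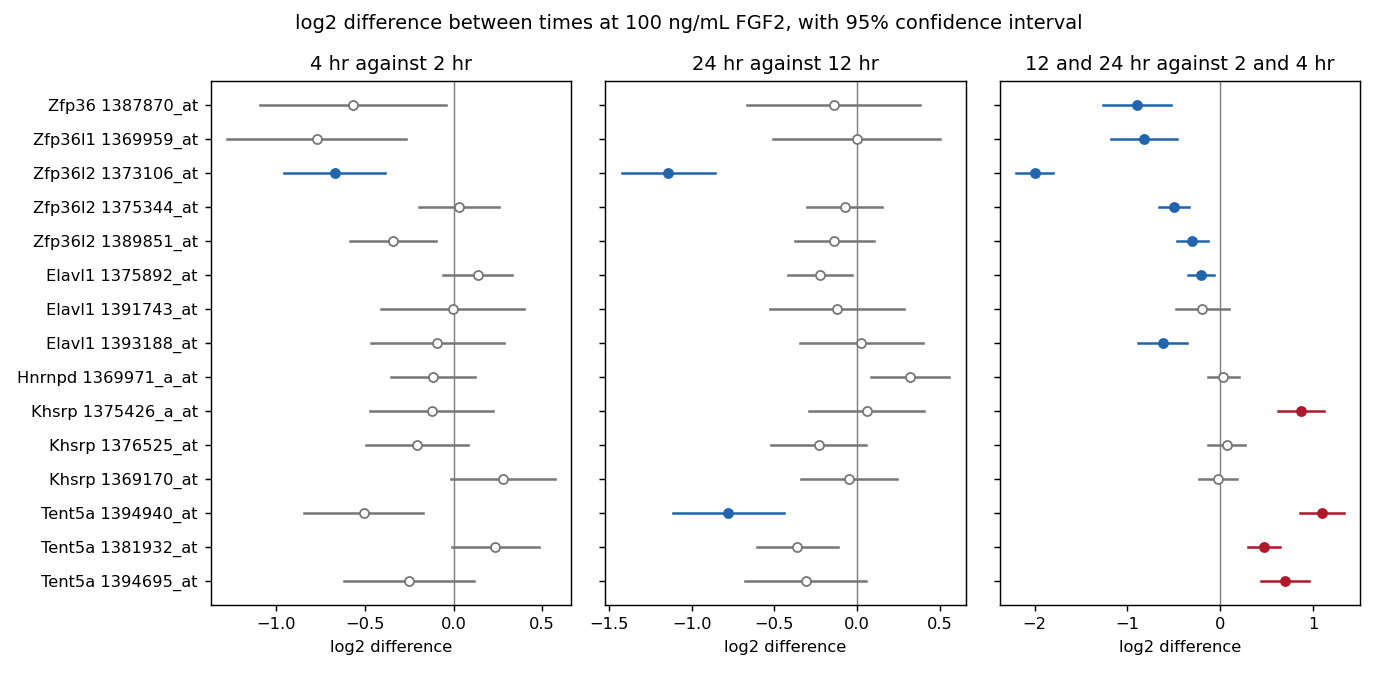
Log2 difference (horizontal axes) of each member probe set for 4 hr against 2 hr, 24 hr against 12 hr, and the mean of 12 and 24 hr against that of 2 and 4 hr, with 95% confidence intervals, red for called higher, blue for called lower, and open grey for not called. Zfp36l2 1373106_at is called lower in all 3 panels (-0.67, -1.14, and -2.00), and Tent5a 1394940_at is lower between 12 and 24 hr yet higher late than early (1.10).

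Genes whose log2 values over the 10 arrays were most like those of a member were listed as a description, with Pearson's r over arrays that share runs and time points. For Zfp36 they were Avpr1a (r = 0.989), a vasopressin receptor, N4bp1 (0.982), Cbarp (0.976), Sdhaf2 (0.974), and Dnajb3 (0.972). For Zfp36l2 they were Senp2 (0.987), a SUMO protease, Tnfrsf1a (0.987), a receptor for tumor necrosis factor, Ccdc71l (0.986), Aebp2 (0.985), and Sting1 (0.981), an innate immune adaptor. For Zfp36l1 they were Sstr4 (0.948), Gpr15lg (0.942), Synpo2 (0.936), Ppm1d (0.928), and Incenp (0.926), and for Tent5a Slc35b2 (0.985), Mrps2 (0.977), Pip5k1c (0.969), Sbno1 (0.965), and Kmt2b (0.964). The closest genes can move far less than the member: the means of Sstr4 span 0.31 log2 units and those of Zfp36l1 1.21.

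The rest of the pathway was followed in 7 lists of 114 genes, of which 104 had a probe set of their own, with 1 probe set (the brightest) per gene. Of these 104 genes, 21 were called higher and 7 lower at 2 hr (20.2 and 6.73%, against 8.61 and 8.88% of all probe sets), and 26 and 14 at 4 hr (25 and 13.5%, against 11.9 and 11.9%). At 12 hr 11 were higher and 10 lower (10.6% higher, against 8.94% of all), and at 24 hr 11 and 11 (10.6 and 10.6%, against 9.29 and 10.9%), which is near the shares of all probe sets. Late against early, 18 were higher and 37 lower (17.3 and 35.6%, against 19.9 and 19.3%). The 2 kinds of share are not alike, since the lists hold the brightest probe set per gene and the background holds all probe sets. Transcripts with AU-rich elements, a list chosen with earlier results known, gave 8 of the 21 higher genes at 2 hr and 9 of the 26 at 4 hr. The counts per list below, of 9 to 24 genes each, stand against the same shares of all probe sets, and no list was tested against them. Not analysed here were Cnot3, Btg2, Dcp1a, Dcp2, Lsm6, Exosc6, Dis3, Zfp36l3, Tent5d, and Pabpc1.

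Transcripts known to carry AU-rich elements made the widest excursions. Of 24 genes, 8 were higher and 1 lower at 2 hr, 9 and 3 at 4 hr, 5 and 1 at 12 hr, and 1 and 3 at 24 hr, with list medians of 0.26, 0.15, 0.02, and 0.04 log2 units. Among the chemokines, Ccl20 rose by 2.17 and 5.24 at 2 and 4 hr (limma adjusted p = 0.00453 and 3.99e-05), Ccl2 rose by 4.35 and 4.68 (0.000429 and 0.000158), and Cxcl1 rose by 2.81 and 4.24 (0.000331 and 2.92e-05), while Ccl3 was not called (0.35 and 0.30, adjusted p = 0.347 and 0.386). Plaur, the urokinase receptor, rose by 3.02 and 2.32, Myc by 2.80 and 2.19, Ptgs2, which encodes cyclooxygenase, by 2.70 and 2.40, and Fos by 1.74 and 1.12 at the same times. At 24 hr Ccl2 fell by 2.88 relative to 0 hr (limma adjusted p = 0.00193), Ier3 fell by 0.75, Hif1a fell by 0.81, and Cdkn1a, a cell cycle inhibitor, rose by 1.21. Late against early, 3 of the 24 were higher and 13 lower, against 19.9 and 19.3% of all probe sets. The list median was -0.47, while the median of all probe sets was 0.03. Ccnd1 (cyclin D1) fell by 0.82 and 1.07 at 2 and 4 hr. The classical target Tnf showed differences between 0.09 and 0.16 at the 4 times and was not called. Tnf read 5.70 log2 units at 0 hr, Ccl3 5.87, Myc 5.74, and Plaur 6.31, each under 100 on the linear scale. Other genes of the list were dimmer (Il6 at 4.03), and whether such levels are above background was not tested. The macrophage markers, 0 of 5 called, summed to 178 to 267 at 0 hr, 215 to 361 at 2 hr, and 271 to 324 at 4 hr on the linear scale. Their part in the values of the 24 transcripts was not tested.

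**Figure D4:**
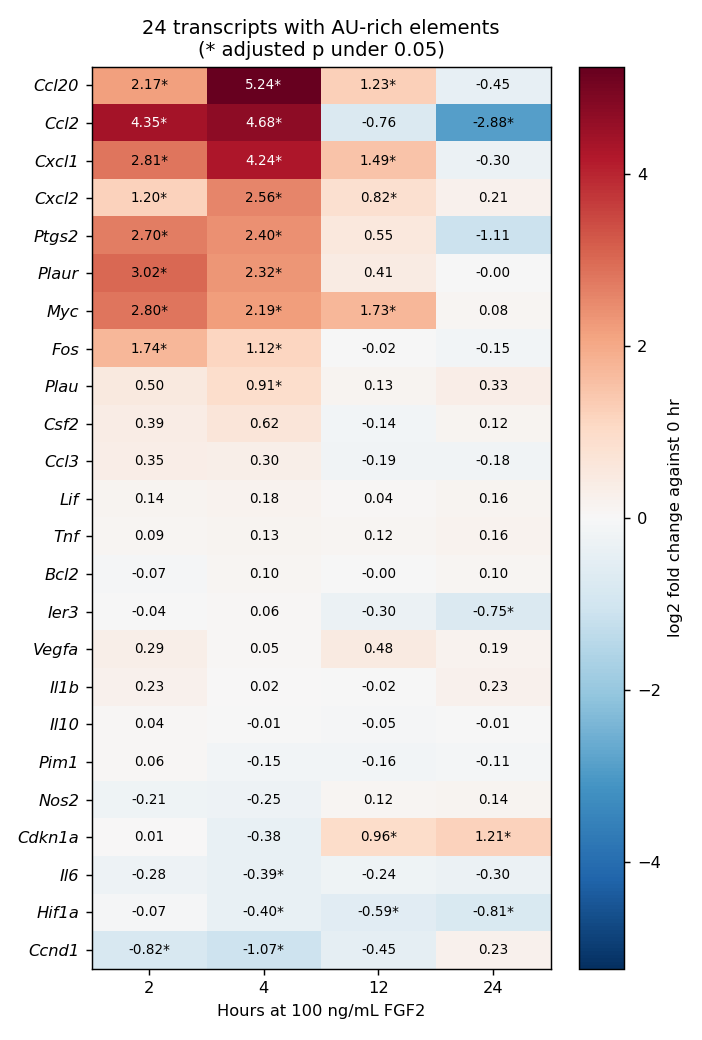
Log2 fold change against 0 hr of 24 transcripts with AU-rich elements (rows, ordered by the value at 4 hr) at 2, 4, 12, and 24 hr (columns), with red for higher and blue for lower, the value in each cell, and an asterisk for an adjusted p under 0.05. The upper 8 rows are called higher at both 2 and 4 hr, and 1 of them, Ccl2, is called lower at 24 hr (-2.88).

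The p38-Mk2 list, which holds the kinases that inactivate tristetraprolin, had 3 genes higher and 1 lower of 12 at 2 hr, 6 and 1 at 4 hr, 1 and 3 at 12 hr, and 1 and 2 at 24 hr. Map2k3, a p38 kinase kinase, rose by 1.06 and 1.11 at 2 and 4 hr and fell by 0.58 and 0.46 at 12 and 24 hr (limma adjusted p = 0.00126, 0.000572, 0.0146, and 0.0392). Map2k6, the other such kinase, fell by 1.35 at 4 hr and by 1.05 at 12 hr. Mapkapk2, which encodes Mk2, rose by 0.50 and 0.61 at 2 and 4 hr, and so did Dusp1, the phosphatase that switches p38 off, by 1.33 and 1.35. Ppp2ca, the catalytic subunit of the phosphatase that reactivates tristetraprolin, rose by 0.42 at 4 hr.

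Genes of other RNA-binding proteins, among them binders of AU-rich elements, moved in both directions. Of 18, 3 were higher and 1 lower at 2 hr, 5 and 2 at 4 hr, 2 and 3 at 12 hr, and 3 and 3 at 24 hr. Elavl4 (HuD), a neuronal relative of Elavl1, rose by 0.60, 1.23, and 1.85 at 4, 12, and 24 hr (limma adjusted p = 0.0413, 0.00188, and 0.000261). Elavl2 (HuB) rose by 0.73 at 2 hr and fell by 0.93 and 0.83 at 12 and 24 hr. Tia1, a translational repressor, fell by 0.76, 0.58, 0.81, and 0.86 at the 4 times. Celf2 rose by 0.85 and 0.66 at 2 and 4 hr, and Rc3h1 (roquin), a decay factor, fell by 0.62 and 0.74 at 12 and 24 hr.

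Against 0 hr, called changes among the deadenylation, decapping, and exosome genes ran from -1.57 to 0.99. Of 16 deadenylation genes 2 were higher and 1 lower at 2 hr, 3 and 3 at 4 hr, and 0 and 2 at both 12 and 24 hr. Tob1, which brings Ccr4-Not to poly(A)-binding protein, fell by 1.52, 1.57, and 0.70 at 2, 4, and 12 hr (limma adjusted p = 0.00133, 0.000648, and 0.0338), and Cnot2, a structural subunit, fell by 0.68, 0.98, and 0.91 at 4, 12, and 24 hr. Cnot6l, a catalytic subunit, rose by 0.59 and 0.63 at 2 and 4 hr, and Btg1 fell by 0.82 at 24 hr. Of 13 decapping genes 3 were higher and 1 lower at 2 hr, 2 and 2 at 4 hr, 1 and 0 at 12 hr, and 3 and 0 at 24 hr. The decapping enhancer Edc3 rose at all 4 times (0.39, 0.50, 0.59, and 0.75), Patl1 rose by 0.43 and 0.73 at 2 and 4 hr, and Ddx6, an RNA helicase, and Dcps, the scavenger decapping enzyme, fell by 0.82 and 0.90 at 4 hr.

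Of 12 exosome genes 1 was higher and 1 lower at 2 hr (8.61 and 8.88% of all probe sets) and 1 and 2 at 4 hr (11.9 and 11.9%). At 12 and at 24 hr 2 were higher (8.94 and 9.29% of all) and 0 lower. Late against early 6 were higher and 2 lower (19.9 and 19.3% of all), with a list median of 0.30. Exosc5 fell by 0.51 at 4 hr and rose by 0.90 and 0.99 at 12 and 24 hr (limma adjusted p = 0.00684, 0.000527, and 0.000336), and Exosc4, like Exosc5 a core subunit, rose by 0.59 and 0.62 at 12 and 24 hr. Skic3, of the helicase complex that feeds the exosome, fell by 0.52 and 0.68 at 2 and 4 hr. Among 9 genes of poly(A) polymerases and poly(A)-binding proteins, 1 was higher and 1 lower at 2 hr, 0 and 1 at both 4 and 12 hr, and 1 and 1 at 24 hr. The lower one at each time was Tent5c, a paralog of Tent5a, at -1.44, -1.93, -1.62, and -1.49 (SE 0.29, limma adjusted p = 0.0107, 0.00176, 0.00493, and 0.00714). Tent5a, by contrast, was higher at all 4 times on 2 of its 3 probe sets, and the difference between the paralogs was not tested.

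Some of these pathway calls were lost on leaving out single arrays or under another fit. Without 0 hr replicate 1 the calls at 2 hr of Ccnd1, Celf2, Cnot6l, Edc3, Elavl2, Mapkapk2, Patl1, Skic3, and Tent5c were lost, and those at 4 hr of Celf2, Dcps, Ddx6, Edc3, and Ppp2ca. Without 0 hr replicate 2 the calls of Cnot6l, Edc3, Patl1, and Tent5c at 2 hr, of Cnot6l, Elavl4, Exosc5, and Ppp2ca at 4 hr, and of Elavl2 at 24 hr were lost. Leaving out 2 hr replicate 2 ended those of Ccnd1, Cnot6l, Edc3, Elavl2, and Patl1 at 2 hr, and leaving out 2 hr replicate 1 that of Tent5c. At 4 hr the calls of Cnot6l, Ddx6, and Elavl4 were lost without 4 hr replicate 1, those of Celf2, Dcps, and Elavl4 without 4 hr replicate 2, and that of Elavl4 also without either 12 hr array. The late calls of Map2k3 and that of Ier3 at 24 hr were lost without either 0 hr array, those of Map2k3 also without 12 hr replicate 2 (at 12 hr) or 24 hr replicate 1 (at 24 hr), and that of Ier3 also without either 12 hr array or 24 hr replicate 1. That of Tent5c at 24 hr was lost without 0 hr replicate 1 or 24 hr replicate 2, and that of Tob1 at 12 hr without any 1 of the 0, 12, and 24 hr arrays. Over all alternatives, Celf2 ranged from 0.52 to 1.01 at 2 hr, Elavl2 from 0.34 to 0.83 at 2 hr, Elavl4 from 0.40 to 0.88 at 4 hr, Dcps from -1.08 to -0.53 at 4 hr, Ier3 from -0.96 to -0.32 at 24 hr, and Tent5c from -2.09 to -1.10 at 2 hr, all without a change of sign. With the Actb ratio as a covariate the calls at 2 hr of Ccl20, Ptgs2, Ccnd1, Celf2, Cnot6l, Edc3, Elavl2, Mapkapk2, Patl1, and Skic3 were lost, those at 4 hr of Celf2, Dcps, Exosc5, and Ppp2ca, and those at 24 hr of Ier3 and Map2k3. The analysis of variance of the methods did not call Ccl20 and Tent5c at 2 hr, Celf2 and Cnot6l at 2 and 4 hr, Dcps, Ddx6, and Elavl4 at 4 hr, Map2k3 at 12 and 24 hr, or Ier3 at 24 hr. A fit of only the compared groups did not call Cnot6l, Edc3, and Patl1 at 2 hr or Celf2, Ddx6, and Elavl4 at 4 hr.

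**Figure D5:**
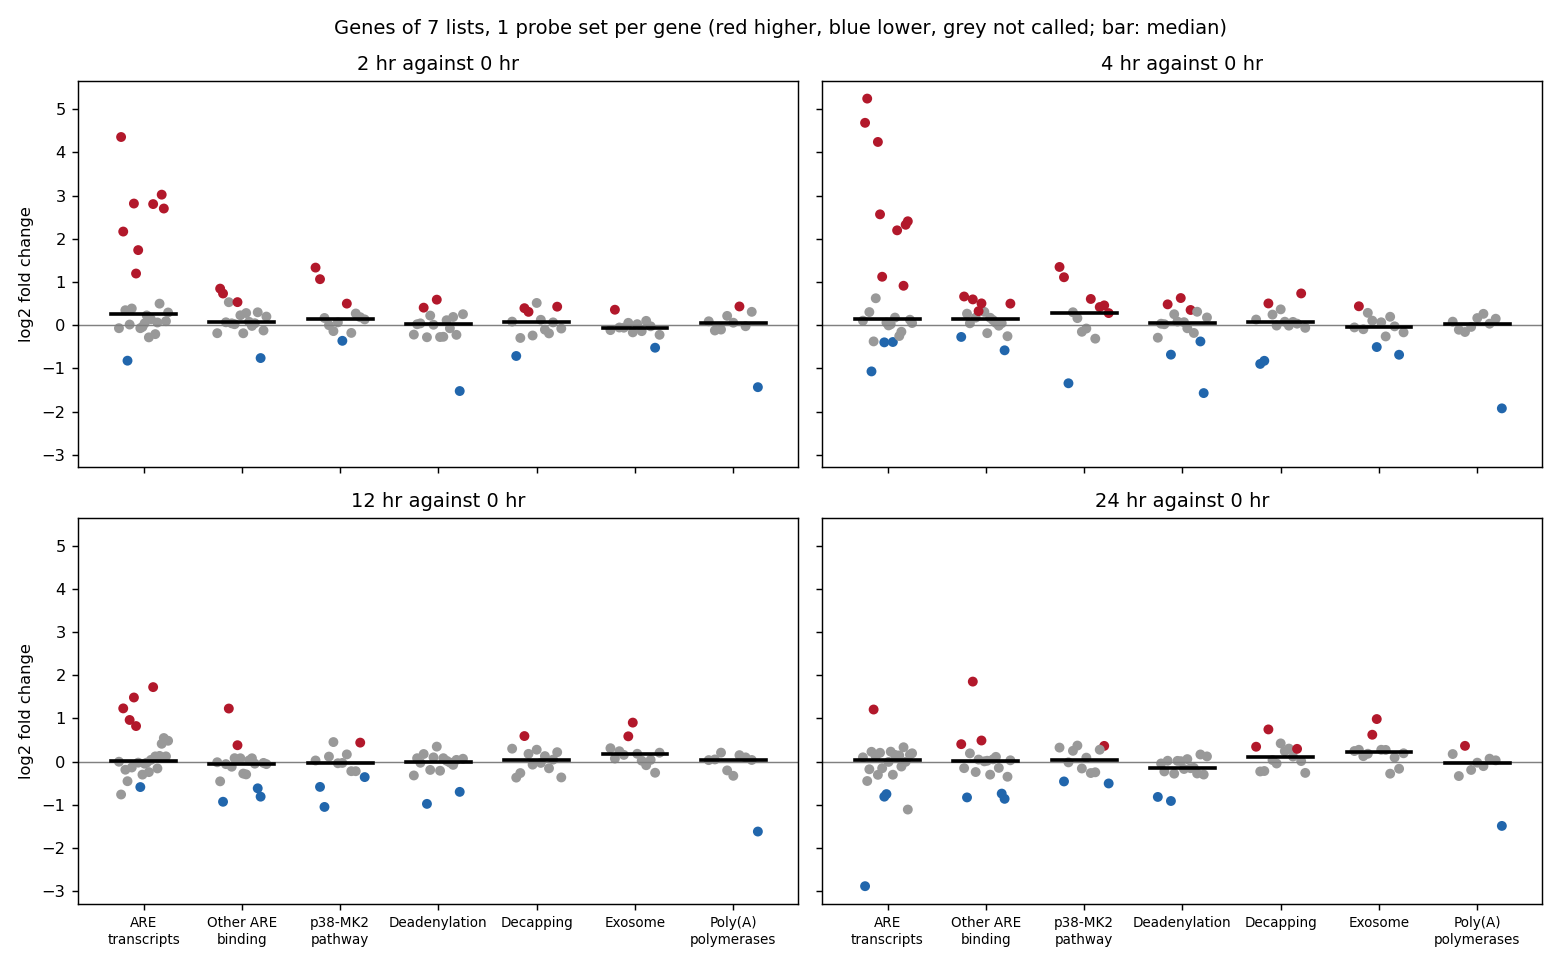
Log2 fold change against 0 hr (vertical axes) of the 104 genes of the 7 pathway lists at 2, 4, 12, and 24 hr, 1 point per gene, red for called higher, blue for called lower, grey for not called, with a black bar at each list median. ARE stands for AU-rich element. Points above 2 are all ARE transcripts, and the lowest point of the poly(A) polymerase column is Tent5c in each panel.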

How the data were processed

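The deposited intensity values were made by the authors with the robust multichip average (RMA), whose version is not given in the sources used here, and are linear. The array type and the RNA kit differ between the study's text and its labels or array names. Values were taken to log2 without further normalization, and 57 array controls were left out. In R 4.3.3, limma 3.58.1 fitted 1 mean per time point over 10 arrays (5 residual degrees of freedom, prior 3.69), with Benjamini-Hochberg adjustment over 31042 probe sets and calls at an adjusted p under 0.05. The early phase is the mean of 2 and 4 hr, the late phase that of 12 and 24 hr. With 2 arrays per time point, the number of arrays limits the precision. The p-values rest on 1 spread between cultures per probe set, pooled over the 5 time points and moderated by that of all probe sets. Replicates differed more at 2 and 4 hr (SD 0.29 and 0.30) than at 0, 12, and 24 hr (0.16, 0.17, and 0.21). The pooled spread can therefore understate that of the early arrays. Where an omission leaves 1 array at a time point, its spread is taken from the others. The fit was tested on simulated data.

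Members, lists and tests were chosen with earlier results of these data known. Named pathway genes were among the 4 largest called changes of their list or define a role, and the 5 genes most like Zfp36, Zfp36l1, Zfp36l2 and Tent5a were named. The lists come from general knowledge. Markers of 7 cell types were checked. Of those without a sum in the report, fibroblast markers summed to 8056 to 11220 on the linear scale, pigment cell markers to 123 to 148 and retina markers to 41 to 48. Pdgfra (mean log2 intensity 13.33 at 0 hr) made up most of the fibroblast sum. Col1a1, Col3a1 and Dcn read 5.90, 6.02 and 6.76 at 0 hr, and 2 of the 4 fibroblast markers were under 100. Symbols came from the platform annotation, and promoters and positions from RefSeq (GRCr8). Levels of different probe sets were set side by side only to take the brightest, to describe brightness, and in the marker sums. No difference in level between probe sets was tested. Alternatives were the analysis of variance that the methods name, without p adjustment, a fit of the compared groups only, a trended and robust prior, a replicate block, quantile normalization, a fold change of at least 1.25, omission of the dimmest 1 in 3 probe sets, centring on array medians, omission of each array and, chosen after seeing the data, array quality weights, the Actb 5′ to 3′ ratio as a covariate and a fit of the 0, 12 and 24 hr arrays alone. Figures were drawn with matplotlib 3.10.9.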

Additional observations from a re-analysis of the deposited data

Results flagged for a closer look

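These results stood out because the change against 0 hr differed between 2 time points, or between the phases, by a test of that difference in the limma fit. Zfp36l2 (1373106_at) differed by -0.67 log2 units for 4 hr against 2 hr and by -1.14 for 24 hr against 12 hr, and Tent5a (1394940_at) by -0.78 for 24 hr against 12 hr. Late against early, all probe sets of the Zfp36 family were lower, with differences of -0.90 for Zfp36, -0.83 for Zfp36l1, and -2.00, -0.50, and -0.30 for the 3 of Zfp36l2 (1373106_at, 1375344_at, and 1389851_at). Elavl1 differed by -0.21 and -0.62 on 2 of its 3 probe sets. Khsrp (1375426_a_at) was higher late by 0.87, and Tent5a was higher by 1.10, 0.47, and 0.70 on 1394940_at, 1381932_at, and 1394695_at. The late and early arrays come from different runs, so for these phase differences run and time cannot be told apart.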

How the results depend on the processing

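The main fit made 36 calls over pairs of a member probe set and a comparison. No call reversed, and 21 of the 36 were kept under every alternative, among them those of Tent5a 1394940_at and Zfp36l2 1373106_at against 0 hr, and the call of Zfp36 at 2 hr. Analysis of variance as in the methods, without adjustment, gave 3 calls at 4 hr (7 in the main fit), 5 at 12 hr (3), 7 at 24 hr (4), and 3 between 4 and 2 hr (1). Those 3 between 4 and 2 hr did not include Zfp36l2 1373106_at, the call of the main fit. A fit of only the compared groups gave 5 at 12 hr and 0 between 4 and 2 hr. Weighting arrays by quality, an alternative added after seeing the data, gave the same 2 counts. The Actb covariate, likewise added, gave 4 calls at 2 hr, against 8 in the main fit. Leaving out each array in turn gave 4 to 10 calls at 2 hr, 4 to 7 at 4 hr, 2 to 4 at 12 hr, 4 to 5 at 24 hr, 0 to 2 between 4 and 2 hr, 1 to 2 between 24 and 12 hr, 10 to 11 between the phases, and 9 to 11 over the time course. The count at 2 hr was 4 without either 0 hr array or 2 hr replicate 1 and 5 without 2 hr replicate 2 or either 12 hr array, and that at 4 hr was 4 without either 0 hr array. Equal replicate numbers did not mark paired cultures over the whole course (1 of 10 pairs of time points correlated above 0.1, range -0.15 to 0.33). The pair above 0.1 was 2 and 4 hr (0.33), the arrays of the early run. Whether these share cultures was not tested, and the main fit compared 4 hr with 2 hr unpaired. The replicate block gave 7 calls at 2 hr and 7 at 4 hr, and of the 36 calls it lost 1, Zfp36l1 at 2 hr. Trended prior, quantile normalization, and median centring kept all 36. Of 166 calls of pathway genes at the 4 times and between the phases, none reversed, and 354 of their 3357 values under the alternatives were no longer called. Counts of called genes per list, with the main count in parentheses, moved furthest for small counts. At 2 hr they were 1 to 3 (3) for deadenylation, 0 to 4 (4) for decapping, 0 to 3 (2) for the exosome, 1 to 6 (4) for other binding proteins, 2 to 5 (4) for p38-Mk2, and 0 to 3 (2) for poly(A) polymerases. At 4 hr they were 2 to 8 (6) for deadenylation, 1 to 5 (4) for decapping, 2 to 8 (7) for other binding proteins, and 1 to 2 (1) for poly(A) polymerases. At 12 hr they were 3 to 10 (6) for transcripts with AU-rich elements, 1 to 4 (2) for deadenylation, 1 to 5 (1) for decapping, 2 to 7 (2) for the exosome, 4 to 8 (5) for other binding proteins, 1 to 5 (4) for p38-Mk2, and 1 to 2 (1) for poly(A) polymerases. At 24 hr they were 2 to 6 (2) for deadenylation, 1 to 5 (3) for decapping, 2 to 8 (2) for the exosome, 1 to 6 (3) for p38-Mk2, and 0 to 3 (2) for poly(A) polymerases. Between the phases decapping gave 2 to 7 (4).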
